A study of Peromyscus maniculatus and Peromyscus polionotus and Peromyscus maniculatus x Peromyscus polionotus with 18 samples.

Results

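The genes described here are the zinc finger genes of the mouse genus Peromyscus that carry the family names Zfp or Znf followed by a number. A gene was a member if its symbol had that form and its mean over the 12 parental brain libraries was at least 3 TPM (a transcript abundance scaled to gene length and library total). This gave 199 members among 20731 named rows of the parental table, 12 of them named Zfp and 187 named Znf. A further 25 such genes had lower means. Of the 199 members, 149 were found by symbol in the allele count table of the hybrids, and the other 50 have parental values only. The mean level chose the members, so levels are given as a description without a test. ZNF296 (mean 3.08 TPM) and ZNF438 (3.1 TPM) lay just inside the limit, and ZNF691 (2.86 TPM) and ZNF827 (2.97 TPM) just outside it. For 5 members the mean reached 3 TPM in 1 species only. These were ZNF296, ZNF438 and ZNF608 in P. polionotus, and ZNF420 and ZNF471 in P. maniculatus.

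Zinc finger proteins of this kind hold short repeats that fold around a zinc ion, and most bind DNA at sequences set by the order of the repeats. Many also carry a KRAB domain, which recruits a corepressor complex that silences chromatin, and these proteins are known for holding down retroelements and for keeping the marks of imprinted genes. The family has expanded by tandem duplication and differs in content between mammals. Symbols follow the deposited tables, and reads of similar copies may be shared between them, so values of close paralogs are uncertain.

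The study profiled whole brains of adult males, 50 to 80 days old, in 6 groups of 3 libraries: Peromyscus maniculatus, Peromyscus polionotus and F1 hybrids of both, taken after a burrowing trial or a control trial, to which animals had been assigned at random. All animals of the 6 groups had first been through pretests in sand-filled enclosures. P. polionotus, the oldfield mouse, digs long burrows, and P. maniculatus, the deer mouse, digs short ones. The title of the series names changes in cis-regulation, for which allele expression within hybrids is the usual measure. The sources used here do not state which parent was the mother of the hybrids. All hybrids carry the same cross label, with no reciprocal cross named. The species of an allele and the parent it came from therefore cannot be told apart in the allele ratios.

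Allele counts summed to between 11415175 and 53906964 per hybrid, of which 52.6% to 53.1% were on the polionotus allele, while TPM keep no depth. In a principal component analysis of the parental libraries the first component (68.3% of variance) separated the species. On the second (7.47%), maniculatus control replicate 3, polionotus control replicate 2 and polionotus burrowing replicate 3 lay apart. The summed level of 4 spinal cord and hindbrain marker genes ranged from 0.664 to 20.3 TPM in P. polionotus and from 13 to 18.5 TPM in P. maniculatus. The part of caudal tissue in the results was not tested. Markers of neurons, astrocytes, oligodendrocytes and microglia were present in all parental libraries, and GH, PRL, LHB, HBB, HBA and FOLR1 had no row. In whole brain RNA, fewer cells of a type and less RNA per cell cannot be told apart.

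Members were expressed at moderate levels in the parental brains. Their means ran from 3.08 to 205 TPM, with quartiles at 8.75, 19.4 and 39.4 TPM. A mean over 100 TPM was reached by 10 members (5.03%), against 15% of the other genes with at least 3 TPM. The most abundant was ZNF365, a protein of the centrosome with roles in the cortex, at 205 TPM. It was followed by ZNF706 (173 TPM), ZNF512B (165 TPM), ZNF280D (162 TPM) and ZNF574 (135 TPM). Of these 5, ZNF365, ZNF512B and ZNF574 were higher in P. polionotus, by 0.30, 0.20 and 0.41 on the log2 scale, while ZNF706 (-0.04) and ZNF280D (-0.03) did not pass the test.

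Between the species, 108 of the 199 members differed, 62 of them higher in P. polionotus and 46 lower (limma on log2(TPM + 1), mean of both trials, adjusted p under 0.05). That is 54.3% of the members, against 52.4% of all 14366 genes tested and 52.3% of the other genes with at least 3 TPM. The share of members called was therefore near the background. The median size of the species difference was 0.17 on the log2 scale for members, 0.18 for the other genes with at least 3 TPM and 0.19 for all genes tested. Called differences over 1 log2 were found for 5 members (2.51%), against 4.14% of the other genes and 4.68% of all genes tested. Those over 0.5 log2 were found for 29 members (14.6%), against 14.8% and 16.1%. Differences on this scale understate the change of genes with low values.

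The ranges of the 6 libraries of each species did not overlap for 76 members (38.2%; 45 higher and 31 lower in P. polionotus). The share was 32.8% over all genes tested and 32.6% over the other genes with at least 3 TPM. By level, 34 of 57 members at 3 to 10 TPM were called (59.6%, against 55.1% of other genes at that level), 40 of 73 at 10 to 30 TPM (54.8%, against 53.9%), and 34 of 69 at 30 TPM or more (49.3%, against 49.1%). Of the members not matched in the count table, 31 of 50 were called (62%) and their median size was 0.31. Of those in it, 77 of 149 were called (51.7%) and their median size was 0.16. The unmatched members also had a lower median level, 12.9 against 20.9 TPM. The matching shares for other genes outside and inside the count table are not given here. The difference between these groups of members was not tested.

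**Figure D1:**
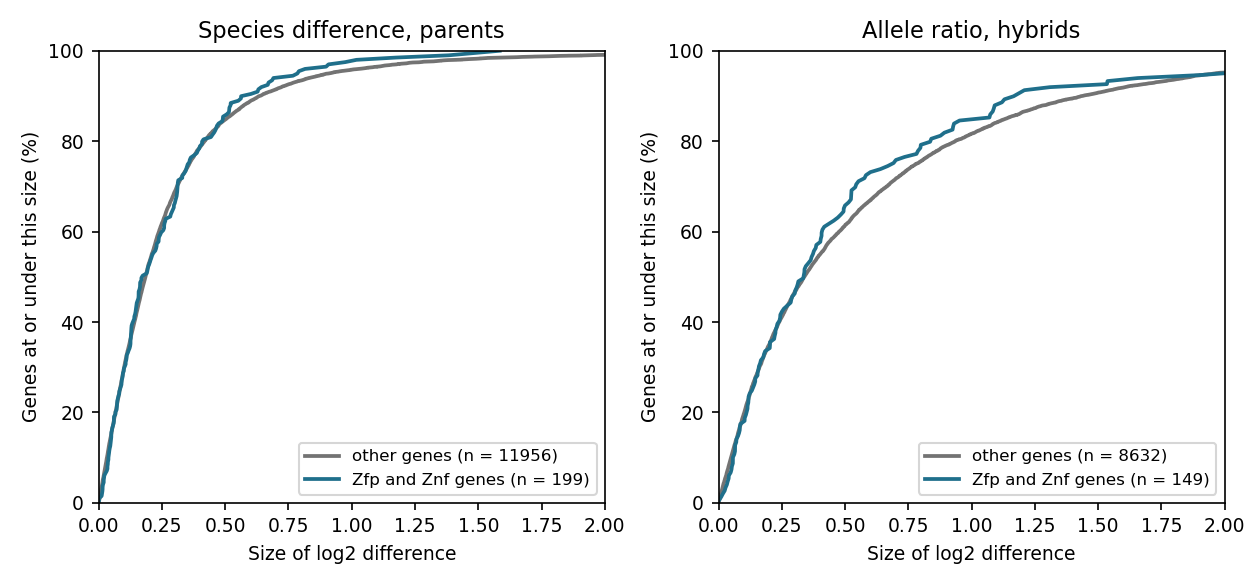
Cumulative share of genes (vertical axis, percent) at or under a given size of log2 difference (horizontal axis, drawn up to 2), for the species difference of the parents on the left and the allele ratio of the hybrids on the right. Zfp and Znf genes are in blue and other genes whose mean reached 3 TPM in grey. The curves run close together up to the median, at 0.17 against 0.18 for species and 0.34 against 0.34 for alleles, and 2.51% of members against 4.14% of other genes had called species differences over 1 log2.

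The direction of the split depended on how libraries were scaled. With quantile normalization 49 members were higher and 60 lower in P. polionotus, and with median scaling 49 and 59, against 62 and 46 with the deposited scaling. Over all genes the shares higher and lower were 32.6% and 19.8% with the deposited scaling, 26.6% and 26.8% with quantile normalization, and 26% and 27.6% with median scaling. The median difference of all genes was 0.06 with the deposited scaling and 0.00 with quantile normalization. The same direction was called under all 3 scalings for 94 members, 48 higher and 46 lower. Without the 3 libraries apart on the second component, 111 members were called, 62 higher and 49 lower, where 52.7% of all genes were (32.2% higher and 20.4% lower).

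The largest increases in P. polionotus were found in genes of low to moderate level. ZNF286A, which carries a KRAB domain, lay at 2.72 to 7.03 TPM (median 6.11) in P. maniculatus and at 16.2 to 20.5 TPM (median 18.4) in P. polionotus, a log2 difference of 1.58 (SE 0.16, adjusted p = 1.59e-05). Its lowest value, 2.72 TPM, was in maniculatus control replicate 3, and without the 3 libraries apart on the second component the difference was 1.37. ZFP300 ranged from 3.74 to 4.75 TPM (median 3.82) in P. maniculatus and from 10.1 to 18.1 TPM (median 11.5) in P. polionotus, a difference of 1.48 (SE 0.11, adjusted p = 1.24e-06). The 2 highest polionotus values of ZFP300, both 18.1 TPM, came from control trial animals. ZNF786, another KRAB protein, ranged from 4.6 to 5.63 TPM (median 5.05) in P. maniculatus and from 13.2 to 15.7 TPM (median 14.9) in P. polionotus, a difference of 1.38 (SE 0.05, adjusted p = 8.63e-09). ZNF30 ranged from 17.7 to 20.4 TPM (median 18.2) and from 39.5 to 47.4 TPM (median 43.1) in the same order, a difference of 1.17 (SE 0.05, adjusted p = 2e-08). For all 4 genes every polionotus library was above every maniculatus library.

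ZNF809, known in the mouse for silencing leukaemia retroviruses in embryonic cells, lay at 3.19 to 7.16 TPM (median 4.99) in P. maniculatus and at 8.22 to 12.9 TPM (median 10.2) in P. polionotus. The difference was 0.97 (SE 0.19, adjusted p = 0.00155). The maniculatus libraries of ZNF809 fell into 3 near 3 TPM (3.19, 3.2 and 3.63) and 3 between 6.35 and 7.16 TPM, with both trials in each set. ZFP3 ranged from 12.8 to 16.2 TPM (median 14.6) in P. maniculatus and from 26 to 30.7 TPM (median 27.9) in P. polionotus, a difference of 0.90 (SE 0.05, adjusted p = 3.62e-07). ZNF330, a nucleolar protein, ranged from 28.8 to 36.1 TPM (median 30.1) and from 47.8 to 61.2 TPM (median 55.9), a difference of 0.79 (SE 0.08, adjusted p = 9.87e-06). ZNF446 ranged from 26.1 to 33 TPM (median 27.8) and from 45.2 to 54 TPM (median 50.2), a difference of 0.79 (SE 0.06, adjusted p = 2.86e-06). No range overlapped between the species in these 4 genes either.

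**Figure D2:**
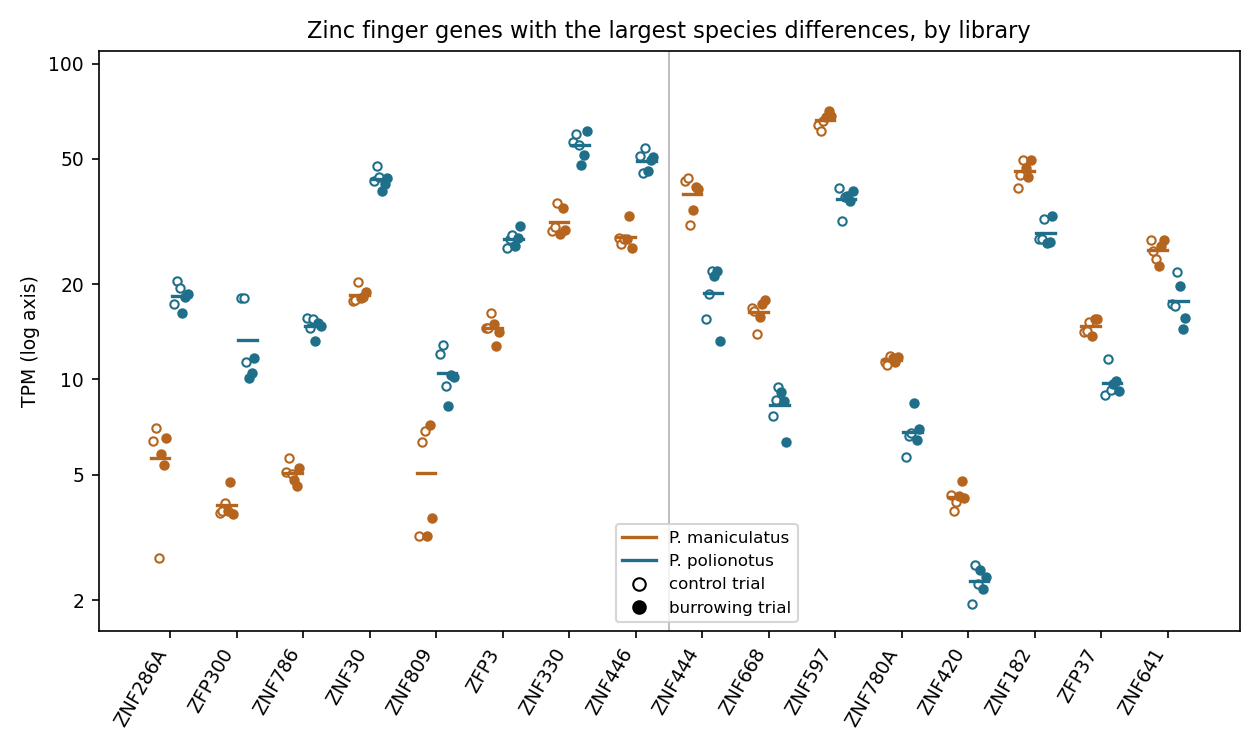
TPM on a log axis in each parental library for the 8 members with the largest increases (left) and the 8 with the largest decreases (right) in P. polionotus among those called with separate ranges. Open points are control and filled points burrowing trial libraries, and bars are species means; the species do not overlap in any of the 16 genes, while the trials do in most.

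Decreases in P. polionotus were smaller. ZNF444 lay at 30.8 to 43.6 TPM (median 40.4) in P. maniculatus and at 13.2 to 22.1 TPM (median 19.9) in P. polionotus, a difference of -1.02 (SE 0.14, adjusted p = 0.000123). ZNF668, linked to DNA repair, ranged from 13.9 to 17.8 TPM (median 16.7) and from 6.34 to 9.5 TPM (median 8.58), a difference of -0.91 (SE 0.09, adjusted p = 1.02e-05). ZNF597, known as an imprinted gene in humans, ranged from 61.3 to 70.9 TPM (median 67) and from 31.8 to 40.3 TPM (median 38), a difference of -0.82 (SE 0.06, adjusted p = 7.62e-07). These were the members with separate ranges that fell furthest in P. polionotus, and ZNF597 was the most abundant of them. ZNF780A ranged from 11.1 to 11.9 TPM (median 11.6) and from 5.69 to 8.41 TPM (median 6.7), a difference of -0.69 (SE 0.06, adjusted p = 6.83e-06). ZNF420 ranged from 3.82 to 4.77 TPM (median 4.24) and from 1.94 to 2.59 TPM (median 2.31), a difference of -0.67 (SE 0.06, adjusted p = 6.59e-06). ZNF420 is one of the members above 3 TPM in P. maniculatus only. ZNF182, ZFP37 and ZNF641 differed by -0.63 (SE 0.07, adjusted p = 2.71e-05), -0.55 (SE 0.06, adjusted p = 3.76e-05) and -0.52 (SE 0.09, adjusted p = 0.000604). Their polionotus medians were 27.8, 9.45 and 17.2 TPM, against 45.6, 14.7 and 26 TPM in P. maniculatus, without overlap.

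Within control trial animals alone, 81 members differed between species (53 higher, 28 lower in P. polionotus), or 40.7% against 39.6% of all genes tested. After burrowing, 76 members differed (40 higher, 36 lower), or 38.2% against 34.1%. Both comparisons come from the same limma fit. Without the 3 libraries apart on the second component the counts were 72 (37.4% of all genes) and 86 (38.4% of all genes). Scaling again moved the split, to 41 higher and 48 lower in the control trial with quantile normalization (39.5% of all genes called, 19.6% higher and 19.8% lower). After burrowing it moved to 35 and 47 (36.8%, 18.7% higher and 18.2% lower). With the deposited scaling the shares of all genes were 26.8% higher and 12.9% lower in the control trial, and 20% and 14.1% after burrowing.

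Members with known roles were grouped by function. Of the 4 tested members that guard imprints or silence retroelements, ZFP57, ZNF445 and ZNF809 were higher and ZNF568 was lower in P. polionotus. That is 100% called, against 52.4% of all genes tested (32.6% higher and 19.8% lower). Their median difference was 0.41, against 0.06 over all genes tested. With quantile normalization 2 were higher and 1 was lower. ZFP57, which keeps methylation at imprinted regions, lay at 13.1 to 17.3 TPM (median 13.8) in P. maniculatus and at 20.8 to 31.1 TPM (median 23.1) in P. polionotus, a difference of 0.67 (SE 0.10, adjusted p = 0.000251). ZNF445, its partner in imprint maintenance, ranged from 27.2 to 32.7 TPM (median 29.6) and from 31.8 to 35.3 TPM (median 33.3). The ranges of ZNF445 overlapped, and its difference of 0.16 (SE 0.05, adjusted p = 0.0177) was no longer called with quantile normalization (0.08, adjusted p = 0.135). ZNF568, a repressor of a placental Igf2 transcript, ranged from 14.5 to 16.7 TPM (median 15.8) and from 10.9 to 12.9 TPM (median 11.5), a difference of -0.39 (SE 0.05, adjusted p = 6.49e-05).

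Of 10 tested members linked to neural development, glia or brain disease, 4 were higher in P. polionotus and none was lower (40% called, against 52.4% of all genes tested, 32.6% higher and 19.8% lower), with a median difference of 0.09. With quantile normalization 3 were higher and 1, ZNF292, was lower. ZNF365 ranged from 176 to 188 TPM (median 183) in P. maniculatus and from 220 to 242 TPM (median 224) in P. polionotus, a difference of 0.30 (SE 0.03, adjusted p = 2.49e-05). ZNF142, mutated in a neurodevelopmental disorder, ranged from 25.4 to 30.5 TPM and from 31.7 to 39.9 TPM, a difference of 0.31 (SE 0.06, adjusted p = 0.000875). ZNF488, which acts in the differentiation of oligodendrocytes, ranged from 2.77 to 6.02 TPM and from 6.21 to 7.57 TPM, a difference of 0.45 (SE 0.10, adjusted p = 0.00416). The species did not overlap in these 3 genes. All 3 oligodendrocyte markers were called between the species too, with sums of 1679 to 2301 TPM in the maniculatus libraries and 1598 to 1826 TPM in the polionotus libraries; their part in the ZNF488 result was not tested. The ranges of ZNF462 overlapped, and its difference of 0.17 (SE 0.06, adjusted p = 0.0323) was no longer called in 9 of 21 alternative analyses. It was lost on leaving out any 1 of maniculatus control replicates 1 and 2, maniculatus burrowing replicates 1 and 3, polionotus control replicate 2 or polionotus burrowing replicate 3 (adjusted p = 0.0546 to 0.0753).

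Of 13 tested members in general transcription, chromatin and ubiquitin or SUMO ligation, 5 were lower in P. polionotus and none was higher (38.5% called, against 52.4% of all genes tested, 19.8% of them lower), with a median difference of -0.05. With quantile normalization 6 were lower and none was higher, where 26.8% of all genes were lower. ZNF451, a SUMO ligase, ranged from 21.3 to 24.1 TPM (median 21.9) in P. maniculatus and from 14.5 to 17.4 TPM (median 16) in P. polionotus, a difference of -0.46 (SE 0.05, adjusted p = 1.59e-05). The others were the transcription factors ZNF384 (-0.31, adjusted p = 0.00855) and ZNF281 (-0.23, adjusted p = 0.00191), the ubiquitin ligase ZFP91 (-0.15, adjusted p = 0.0166) and ZNF687 (-0.16, adjusted p = 0.0262). The call of ZNF687 was lost on leaving out 1 of 7 libraries in turn (adjusted p = 0.0513 to 0.064): maniculatus control 1 and 3, maniculatus burrowing 2 and 3, polionotus control 3, and polionotus burrowing 1 and 2. Of 7 tested RNA-binding members 2 were called (28.6%, against 52.4% of all genes tested). ZNF106 was higher (0.47, SE 0.08, adjusted p = 0.000562), at 23.1 to 26 TPM in P. polionotus against 14.1 to 21.1 TPM. ZNF346, a protein that binds double-stranded RNA, was lower (-0.16, SE 0.05, adjusted p = 0.017), with overlapping ranges. These lists were chosen with earlier results of these data known, and their counts show no more than the members they name.

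Other genes of the corepressor machinery that KRAB proteins recruit were read from a list. TRIM28 and SETDB1, the scaffold and the methyltransferase at its core, were not among the 28 genes tested, and their species difference is not analysed here. Of the 28, 11 were higher and 2 lower in P. polionotus (46.4% called, against 52.4% of all genes), and with quantile normalization 9 and 3. HDAC1, a histone deacetylase, was at 7.67 ± 0.734 TPM (SD, n = 6) in P. maniculatus against 15.3 ± 1.44 TPM in P. polionotus, a difference of 0.91 (SE 0.07, adjusted p = 1.95e-06). SUMO2, a ubiquitin-like modifier, was at 54 ± 1.78 and 38.7 ± 4.55 TPM, a difference of -0.48 (SE 0.07, adjusted p = 0.000316). H3F3A, a histone gene, was at 9.07 ± 1.08 and 12.3 ± 2.21 TPM, a difference of 0.39 (SE 0.11, adjusted p = 0.0135). Among related families, 16 of 40 tested Zbtb genes (40%), 6 of 13 Zscan and Zkscan genes (46.2%) and 9 of 22 Klf and Sp genes (40.9%) were called. Each share was below the 52.4% of all genes tested.

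In the hybrids, where both alleles are read in the same animal, 80 of 149 members had unequal alleles (edgeR quasi-likelihood test with each animal as a block, adjusted p under 0.05). The polionotus allele was the higher in 42 and the lower in 38. The share called was 53.7%, against 55.7% of all 11928 genes in the count table, so it was near the background. Over all genes the polionotus allele was the higher in 34.2% and the lower in 21.5%. Median sizes of the allele ratio were 0.34 for members and 0.34 for the other genes with at least 3 TPM. Called ratios over 1 log2 were found for 18 members (12.1%), against 15.9% of the other genes and 17.5% of the count table. In 75 members (50.3%) all 6 hybrids lay on the same side of an equal share, against 53.8% of the other genes with at least 3 TPM and 53% of the count table.

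The allele split also moved with the library size used. With the total of each allele column as its own library size, 88 members were called, 25 higher and 63 lower (59.8% of all genes, 24.6% higher and 35.2% lower), and the median ratio of all genes shifted from 0.11 to -0.05. The same direction was called both ways for 63 members, 25 higher and 38 lower. Without the animal block, 48 members were called, 27 higher and 21 lower, where 38.8% of all genes were. The reference to which each species and each allele was aligned is not stated in these sources, so a difference in how well reads aligned could move species differences and allele shares, and this was not tested. The 95% Wilson intervals of single shares had a median width of 6.04 points over 71 genes and cover counting error only.

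The strongest polionotus bias was that of ZNF445, the imprint guardian. Its polionotus share ran from 94.7% to 95.4% (median 95.2%) over 986 to 5256 allele counts per animal, a log2 ratio of 4.29 (SE 0.04, adjusted p = 1.17e-07). ZNF496 ran from 93.9% to 96.2% (median 94.9%), a ratio of 4.22 (SE 0.10, adjusted p = 5.69e-07). ZNF740 ran from 92.9% to 94% (median 93.5%), a ratio of 3.83 (SE 0.05, adjusted p = 1.17e-07). The 6 hybrids lay within 2.32 points of each other or less in each of these genes. ZNF644, a partner of histone methyltransferases, ran from 86.4% to 89.1% (median 88.2%), a ratio of 2.89 (SE 0.05, adjusted p = 2.51e-07). ZNF286A ran from 77.4% to 91% (median 85.9%), a ratio of 2.50 (SE 0.22, adjusted p = 0.000157). ZNF410, known for its control of the remodeller gene CHD4, ran from 58.8% to 83.4% (median 81.4%), a ratio of 1.91 (SE 0.26, adjusted p = 0.00121). The low share of ZNF410, 58.8% (95% Wilson interval 56.7% to 60.8%), was that of burrowing replicate 2, and the other 5 hybrids lay between 80.4% and 83.4%.

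The strongest maniculatus bias was that of ZNF304, whose polionotus share ran from 5.06% to 44.8% (median 10%) over 71 to 399 allele counts, a log2 ratio of -2.66 (SE 0.52, adjusted p = 0.00544). Here too burrowing replicate 2 stood apart, at 44.8% (39.7% to 50%), with the other 5 hybrids at or under 14.1%. Without that hybrid the ratio was -3.23, and leaving out other hybrids gave up to -2.47. ZNF22 ran from 11.7% to 21.6% (median 20.3%), a ratio of -2.23 (SE 0.18, adjusted p = 0.000116). ZNF467 ran from 21.4% to 48.5% (median 26%), a ratio of -1.17 (SE 0.31, adjusted p = 0.0178), and the call was lost without control replicate 1, control replicate 3 or burrowing replicate 3 (adjusted p = 0.05 to 0.0536). ZNF189, studied in the mouse forebrain for its part in stress resilience, ran from 28.6% to 38.2% (median 31.5%), a ratio of -1.08 (SE 0.08, adjusted p = 9.15e-05). All 6 hybrids were under 50% in each of these genes. ZNF597 ran from 32.7% to 36.1% (median 34.4%), a ratio of -0.92 (SE 0.04, adjusted p = 8.44e-06). For ZNF597, imprinted in humans, an effect of species and one of parent of origin cannot be told apart here. ZNF483 ran from 26.8% to 49.7% (median 35.4%), a ratio of -0.84 (SE 0.18, adjusted p = 0.00786).

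**Figure D3:**
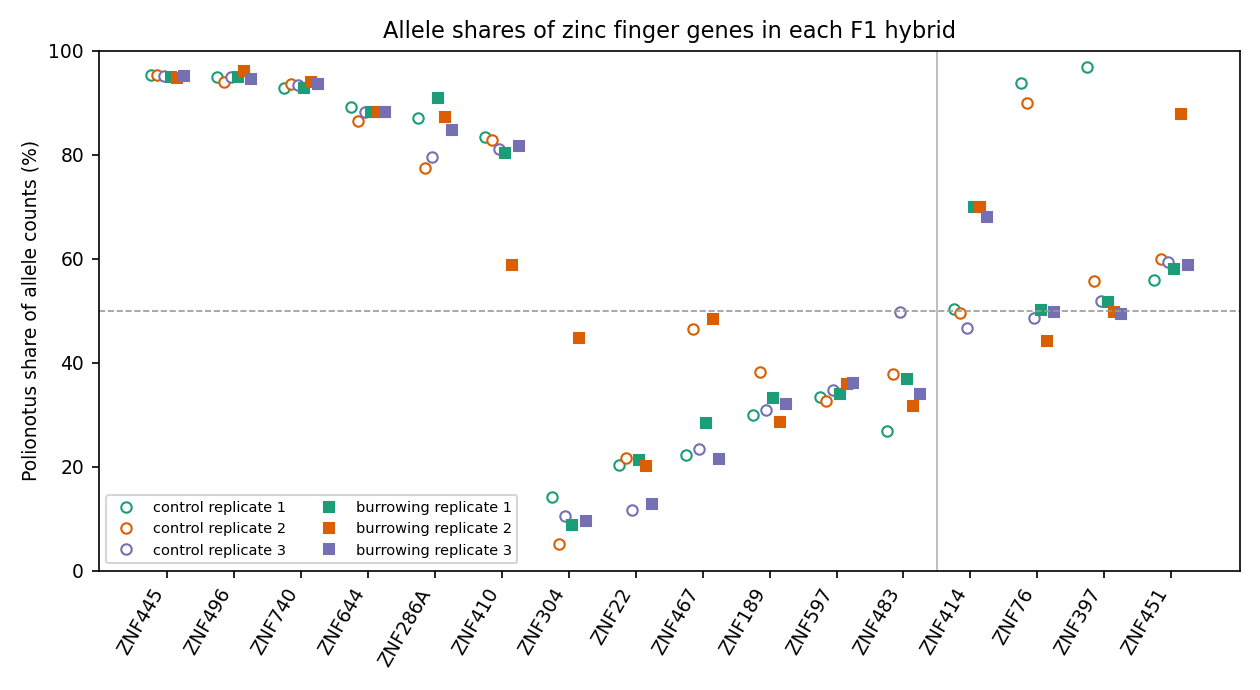
Polionotus share of allele counts (percent) of each F1 hybrid for 6 members with the largest polionotus bias, 6 with the largest maniculatus bias, and, right of the vertical line, 4 members discussed for their differences between animals. Open circles are control and squares burrowing trial hybrids, colours are replicate numbers, and the dashed line marks 50%; ZNF445 stays within 94.7% to 95.4% while ZNF76 runs from 44.1% to 93.8%.

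Among members with roles, ZNF292, mutated in intellectual disability, had polionotus shares of 73.2% to 75.7% (ratio 1.54, SE 0.04, adjusted p = 6.65e-07). Its species difference was -0.13 (adjusted p = 0.0558). ZNF365 had shares of 54.7% to 56.6% (0.31, SE 0.03, adjusted p = 0.000126) and ZNF335, needed in neural progenitors, 52.4% to 56.1% (0.29, SE 0.04, adjusted p = 0.00105). ZNF365 was thus higher on the polionotus side in both measures. ZNF106 (ratio 0.41) was called towards the polionotus allele and ZNF346 (-0.27) towards the maniculatus allele. ZFP57 (0.22), ZNF142 (0.13), ZNF592 (0.47), ZNF593 (-0.35) and ZNF384 (-0.12) were also called, with edgeR adjusted p from 0.0139 for ZNF384 to 0.0273 for ZNF593. With own allele totals, ZNF142 turned to -0.03 (adjusted p = 0.489), and the calls of ZFP57 (0.06, adjusted p = 0.4), ZNF106 (0.25, adjusted p = 0.0829) and ZNF592 (0.31, adjusted p = 0.0881) were lost. ZNF365 (0.15) and ZNF335 (0.13) stayed called at smaller ratios, and ZNF346 (-0.43) and ZNF384 (-0.28) at larger ones. Without the animal block, ZFP57, ZNF142, ZNF335, ZNF346, ZNF384 and ZNF593 were not called (adjusted p = 0.126 to 0.5), and with DESeq2 ZNF593 was not (adjusted p = 0.0814). In the leave-one-out fits, calls were lost on leaving out control replicate 3 (ZFP57, ZNF142, ZNF592, ZNF593), burrowing replicate 3 (ZFP57, ZNF142, ZNF592), burrowing replicate 1 (ZFP57, ZNF592, ZNF593), or control replicate 2 or burrowing replicate 2 (ZNF592, ZNF593), with adjusted p = 0.0507 to 0.104.

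Species and allele differences were set side by side for the 149 members in both tables; parents and hybrids are different animals, and the units differ. The same direction was called in both for 40 members (22 higher, 18 lower in polionotus), or 26.8% against 26.5% of the 9989 genes in both tables. Opposite directions were called for 7 (4.7%, against 5.56%). A further 30 were called between species only (20.1%, against 20%), 33 between alleles only (22.1%, against 23.4%) and 39 in neither (26.2%, against 24.6%). Across members the species difference and the allele ratio had Pearson's r of 0.23 and Spearman's rho of 0.33 (n = 149 genes), and across all 9989 genes 0.31 and 0.36. Genes are not independent replicates, and all points share the same 18 libraries. With quantile normalization and own allele totals the counts were 36 in the same direction (9 higher, 27 lower) and 13 opposite. Each of these settings alone also moved the calls of all genes towards lower in polionotus. Joint counts over all genes with both settings are not given here, so the shift cannot be assigned to the members in particular.

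The joint picture differed from gene to gene. ZNF286A and ZNF597 had large differences in the same direction in both measures, 1.58 and 2.50 for ZNF286A and -0.82 and -0.92 for ZNF597. ZNF786 (1.38 and 0.89), ZFP3 (0.90 and 0.36), ZNF330 (0.79 and 0.58) and ZNF446 (0.79 and 0.93) were higher in both, and ZNF444 (-1.02 and -0.29), ZNF668 (-0.91 and -0.41), ZFP37 (-0.55 and -0.41) and ZNF641 (-0.52 and -0.22) lower in both. With own allele totals the ratio of ZFP3 was 0.20 and no longer called (adjusted p = 0.0503), and those of ZNF444 and ZNF641 were -0.45 and -0.38. The allele call of ZFP37 was near the limit (edgeR adjusted p = 0.0431). Its polionotus share was 54.2% (95% Wilson interval 51.3% to 57.2%) in hybrid control replicate 3 and 37.1% to 43.6% in the other hybrids. By contrast, ZNF496, ZNF740, ZNF644, ZNF410, ZNF304, ZNF22 and ZNF467, all with large allele ratios, had species differences from -0.14 to 0.15, none of them called. ZNF445, with the strongest polionotus bias (4.29), was called higher in both measures. Its species difference was only 0.16, with overlapping ranges, and with quantile normalization it was 0.08 and not called. For ZNF740 the parents overlapped fully, at 81.2 to 90.8 TPM in P. maniculatus against 76.6 to 97.7 TPM in P. polionotus, although 92.9% to 94% of its allele counts were on the polionotus allele.

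Members with opposite calls were few. ZNF483 was higher in P. polionotus, at 63.1 to 73.7 TPM against 44.6 to 48.8 TPM (0.52, SE 0.05, adjusted p = 1.12e-05), while its hybrid shares were all under 50% (-0.84). ZNF428 was at 30.8 to 57.1 TPM against 22.2 to 30.2 TPM (0.44, SE 0.13, adjusted p = 0.012), with shares of 41.8% to 45.5% (-0.38, SE 0.04, adjusted p = 0.000543). Without the animal block its allele ratio was not called (adjusted p = 0.0534). The highest ZNF428 value came from polionotus control replicate 2 and the lowest from maniculatus control replicate 3, and without the 3 libraries apart on the second component the difference was 0.31. ZNF469 (0.36 and -0.51) and ZNF652, a transcriptional repressor (0.35 and -0.53), had species ranges that overlapped and hybrid shares under 50% in all 6 animals.

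**Figure D4:**
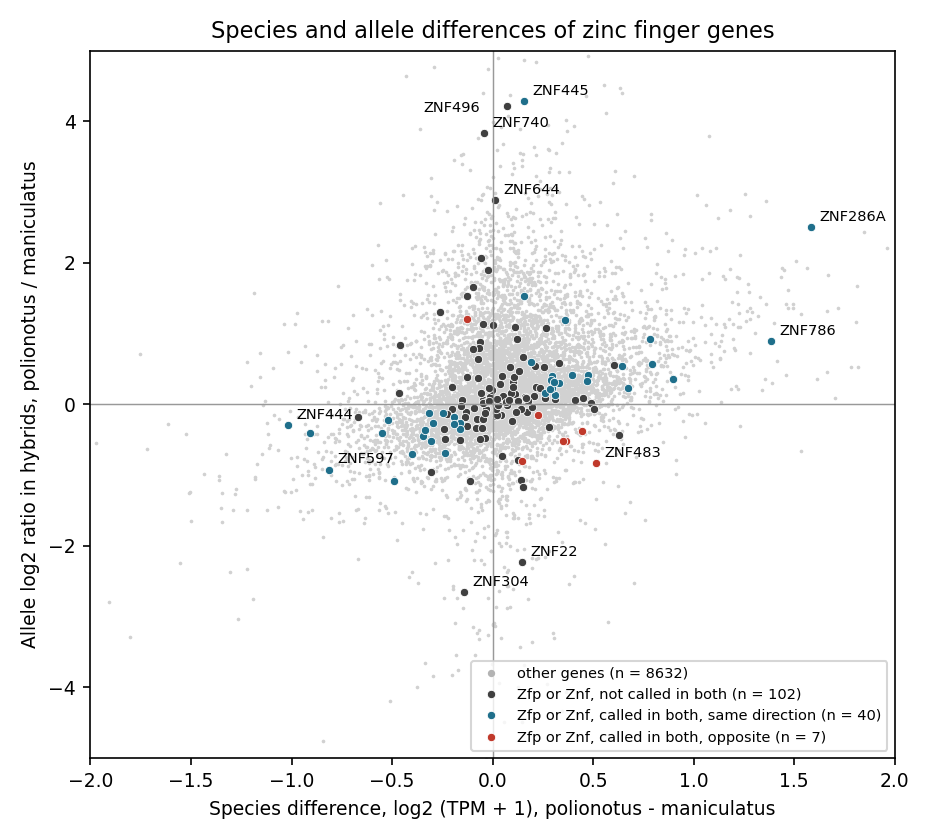
Species difference of the parents (horizontal, log2(TPM + 1), polionotus minus maniculatus) against the allele log2 ratio in hybrids (vertical, polionotus over maniculatus) for 149 members and 8632 other genes in grey, drawn up to a size of 2 horizontally and 5 vertically. Blue points are the 40 members called in both in the same direction, red the 7 called in opposite directions; ZNF740 and ZNF644 lie high on the vertical axis near a species difference of 0.

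No member passed the test between trials. With limma, 0 of 199 members were called between burrowing and control animals in P. maniculatus, in P. polionotus, or in the species by trial contrast, and at an unadjusted p under 0.05 there were 5 members in each of the 3. Over all 14366 genes the share called was 0.00696%, 0% and 0%, with 291, 446 and 415 genes at an unadjusted p under 0.05. In hybrids, 0 of 149 members were called with edgeR and 0 with DESeq2 (0% and 0.0168% of all genes). With edgeR, 0 members and 90 of 11928 genes had an unadjusted p under 0.05.

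The members with the smallest p in each direction are given as not passing, with their log2 differences. In P. maniculatus they were ZNF189 (0.19), ZNF518A (0.18), ZNF408 (-0.19) and ZNF488 (-0.34). In P. polionotus they were ZNF780A (0.16), ZNF280B (0.11), ZFP300 (-0.50) and ZNF76 (-0.24). ZFP300 was at 18.1, 18.1 and 11.4 TPM in polionotus control animals and at 10.1, 10.5 and 11.7 TPM after burrowing, so the trials overlapped. In the species by trial contrast the members were ZNF25 (0.18), ZNF664 (0.19), ZNF76 (-0.34) and ZNF518A (-0.32). All of these limma values had adjusted p of at least 0.992. In hybrids they were ZFP37 (0.35), ZNF24 (0.25), ZNF414 (-0.54) and ZNF341 (-0.32), each with an adjusted p of 0.965 in edgeR.

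A single member, ZNF414, had an allele ratio that differed between the trials, where 0.226% of all genes did (0.218% towards polionotus after burrowing and 0.00838% towards maniculatus). Its polionotus shares were 50.3%, 49.6% and 46.6% in control hybrids and 69.9%, 70% and 68.1% in burrowing hybrids, a log2 interaction of 1.25 (SE 0.10, adjusted p = 0.0243 in edgeR). The trials did not overlap, and the 95% Wilson intervals spanned 44.4% to 55% in control and 64.2% to 73.7% in burrowing hybrids. The call was lost on leaving out any 1 hybrid other than control replicate 3 (adjusted p = 0.0519 to 0.137) and without the animal block. In the parents ZNF414 was higher in P. polionotus, at 111 to 143 TPM against 72.3 to 88.3 TPM (0.60, SE 0.06, adjusted p = 1.87e-05). Of its 10 neighbours in the count table (within 10 genes in the gene order of the RefSeq assembly), ADAMTS10 and LOC102923557 were also called, and 5 had burrowing shares above control shares without overlap, against 4.54% of all genes. Their part in the ZNF414 result was not tested.

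Allele shares varied between hybrids in some members. The median range over the 6 hybrids was 9.18 points for members and 10.2 points for all genes of the count table, and 34 members (22.8%, against 27.6%) ranged over more than 20 points. ZNF76, a relative of the snRNA activator ZNF143, was at 93.8%, 89.9% and 48.6% in control replicates 1 to 3 and at 50.1%, 44.1% and 49.8% in burrowing replicates 1 to 3. ZNF397 was at 96.8% (94.3% to 98.2%) in control replicate 1 and between 49.3% and 55.8% in the other 5. ZNF558 was at 98.8% in control replicate 1 and 98.1% in burrowing replicate 1, and between 48.1% and 52.4% in the other 4. The high animals lay far outside counting error in these 3 genes. ZNF451 was at 87.8% (86.2% to 89.2%) in burrowing replicate 2 and between 56% and 60% elsewhere.

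The shares of genes next to these members were read in the same animals. Of the 34 members with a range over 20 points, 33 could be placed, and 31 of them had at least 1 gene within 10 genes that deviated by more than 10 points in the same direction in the same hybrid. Summed over members, 114 of 319 such neighbours did, with a gene near more than 1 member counted for each. Between 4.21% and 9.04% of all genes of a hybrid deviated that far in 1 direction. The share of other genes with at least 1 such neighbour is not given here. All 7 neighbours of ZNF76 deviated so, 8 of 13 of ZNF704 and 9 of 10 of ZNF148. At the other end, 0 of 7 neighbours of ZNF12 and 0 of 1 of ZNF304 did, 1 of 10 of ZNF410, 1 of 10 of ZNF628, 1 of 14 of ZNF518A and 1 of 16 of ZNF639. The ZNF704 deviation was read in control replicate 1, at 30.8% over 13 allele counts (95% Wilson interval 12.7% to 57.6%). The median of its 6 hybrids was 58.2%. The largest deviation from the median of the 6 hybrids was in burrowing replicate 2 for 14 members and in control replicate 1 for 9. That animal did not always stand apart. ZNF148 was at 45.5% in burrowing replicate 2, but also at 46.4% in control replicate 1 and 45.7% in burrowing replicate 3. ZNF436 was at 48.7% in burrowing replicate 2, 52% in control replicate 1 and 50.8% in burrowing replicate 1.

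Position in the genome was compared with the species differences through the same gene order. Of 171 members found in the RefSeq gene table, 77 had another Zfp, Znf, Zscan or Zkscan gene within 5 genes and 94 had none. Of those with such a neighbour, 40 were called between species (51.9%), against 45 (47.9%) of those without. The share over all genes tested was 52.4%. Both shares of placed members lay below the 54.3% of all 199 members. Members that could not be placed were therefore called at a higher share, and the reason was not tested. All 3 placed members with a called difference over 1 log2 had a zinc finger neighbour. ZFP300 and ZNF30, also over 1 log2, could not be placed. Of 78 pairs of members within 5 genes of each other, both were called in 23, in the same direction in 9 and in opposite directions in 14. The matching share for pairs of other genes is not given here. The longest run, ZNF800, ZNF786, ZNF398, ZNF282, ZNF212, ZNF777, ZNF746, ZNF467, ZNF862 and ZNF775, held 4 higher and 1 lower member with differences from -0.16 to 1.38. In the next, ZNF565, ZNF146, ZNF382, ZNF260, ZNF566, ZNF568 and ZNF569, 2 were higher and 3 lower. Neighbouring members were thus called in either direction. Many pairs share a gene and are not independent, and whether opposite calls were more frequent than among other pairs was not tested. Of 5 members on the X, 2 were called: ZNF449 was higher (6.46 against 8.25 TPM, adjusted p = 0.000498) and ZNF157 lower (8.91 against 7.04 TPM, adjusted p = 0.00948) in P. polionotus, and none of the 5 was in the count table.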

How the data were processed

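Groups and replicate numbers came from the sample titles. TPM of the 12 parental libraries and whole-number allele counts of the 6 hybrids are the authors' deposited values. Reads were aligned with STAR 2.4.2a, per the submitters' processing notes. For genome build, annotation, TPM tool, allele assignment and the reference used for each species, the sources used here give nothing. A TPM row that names no gene (0.789% to 2.48% of a library) was left out.

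Parental log2(TPM + 1) values were tested with limma 3.58.1 (mean trend, R 4.3.3) over the 14366 genes whose mean reached 1 TPM, with 1 mean per group and shared spread. Allele counts were tested with edgeR 4.0.16 (quasi-likelihood, animal as block, sum of both alleles as library size of both columns, mean of at least 20 counts). Summed counts were tested between trials with edgeR (TMM, filterByExpr). All tests covered both directions, with Benjamini-Hochberg adjustment over all genes and a threshold of 0.05, and DESeq2 1.42.0 was an alternative, as were other scalings, filters, pseudocounts and left-out libraries. Each library was taken as 1 animal, and p-values measure the spread between these animals. Scripts were tested on simulated data.

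Named genes were the largest called differences per direction with separate ranges (species, 8) or all hybrids on 1 side of 50% (alleles, 6), 4 with opposite calls, role list members called in either comparison, the largest 3 called corepressors, the members nearest the 3 TPM limit or above it in 1 species, and, between trials, called members or the 2 smallest p per direction. ZNF397, ZNF558, ZNF451 and other members of variable share, and the abundant, X-linked and neighbouring genes, were named after their values were seen. Members and lists were chosen with earlier results of these data known. The RefSeq gene table of assembly HU_Pman_BW_mat_3.1 gave gene order and chromosome names only, because builds may differ. Counts of zinc fingers per protein were not made, since no protein table was used here.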

Additional observations from a re-analysis of the deposited data

Results flagged for a closer look

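Among 157 groups of 6 values checked (the species TPM and hybrid shares of 55 named genes), 23 held a highest or lowest value far from its nearest neighbour relative to the range of the group (Dixon's 95% criterion). Chance flags about 1 in 20 groups, or 5%.

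In P. maniculatus, control replicate 3 was lowest for ZNF286A (2.72 TPM) and ZNF428 (22.2 TPM) and highest for ZNF664 (102 TPM), and control replicate 2 was lowest for ZNF24 (41.4 TPM). Burrowing replicate 2 was highest for ZFP300 (4.75 TPM), ZNF446 (33 TPM) and ZNF76 (40.1 TPM). Burrowing replicate 1 was lowest for ZNF488 (2.77 TPM) and burrowing replicate 3 highest for ZNF142 (30.5 TPM). In P. polionotus, control replicate 2 was highest for ZNF496 (10.6 TPM), ZNF428 (57.1 TPM), ZNF652 (22.6 TPM) and ZNF142 (39.9 TPM), and control replicate 3 for ZNF335 (37.9 TPM).

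Among hybrid shares, burrowing replicate 2 stood apart for ZNF410 (58.8%), ZNF304 (44.8%), ZNF106 (47.3%) and ZNF451 (87.8%). Control replicate 1 stood apart for ZNF25 (93.5%), ZNF24 (76.6%) and ZNF592 (45.1%). Control replicate 2 was flagged for ZNF644 (86.4%, 95% Wilson interval 83.3% to 89%) and ZNF518A (70%). The ZNF644 interval covers the shares of the other hybrids except control replicate 1 (89.1%). The ZNF518A share came from 20 allele counts in that animal (95% Wilson interval 48.1% to 85.5%).

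The allele ratio of ZNF414 differed between the trials by a test of the difference itself (1.25 on the log2 scale, edgeR adjusted p = 0.0243), as described with its shares above.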

How the results depend on the processing

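The counts of called members kept within 1.5 times of the values reported for the 3 species comparisons under every other scaling, filter, pseudocount, fit and set of libraries tried, and stayed 0 for the trial comparisons and the species by trial contrast. Leaving out each library in turn gave 98 to 110 members between species, 67 to 85 in the control trial, 58 to 85 after burrowing, 67 to 74 between alleles and 0 to 2 for the allele by trial term (2 without hybrid control replicate 3). Without the animal block, which pairs the alleles of 1 animal, 48 members were called between alleles and 0 for the allele by trial term. Replicate numbers were not taken to pair the animals, since correlations of same-numbered libraries were not all over 0.1 and ran from -0.229 to 0.547 in parents and from -0.567 to 0.19 in hybrids. With the replicate number as a block, 110, 85 and 86 members were called between species (both trials, control, burrowing) and 0 in each trial comparison. With a further limit of 0.5 log2 in both measures, 6 members (4.03%) were called in the same direction between species and alleles, in place of 40 (26.8%). Over all genes in both tables the share fell from 26.5% to 6.18%. With the 0.5 log2 limit on the species difference alone, 29 members (14.6%) were called in place of 108 (54.3%). Over all genes tested this share was 16.1% in place of 52.4%. Of 60 results of named genes, 46 kept direction and call under all alternatives, 14 lost the call in at least 1, and 1, the allele ratio of ZNF142, changed sign (-0.03 with own allele totals). Where a call was lost, the cause was not tested. Own allele totals, X-linked members and the 3 libraries left out were alternatives chosen after seeing the data. TPM give no depth, and shares from few counts (ZNF518A, ZNF593, ZNF704) have wide intervals.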
